A study of Mus musculus with 12 samples.

Results

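The let-7 guide strands are the mature miRs that the let-7 genes and Mir98 load into Argonaute, and 9 entries of the miR-seq count table hold them: mmu-let-7a-5p, mmu-let-7b-5p, mmu-let-7c-5p, mmu-let-7d-5p, mmu-let-7e-5p/7k, mmu-let-7f-5p, mmu-let-7g-5p, mmu-let-7i-5p and mmu-miR-98-5p. They are described together with mmu-let-7d-3p, the opposite strand of the let-7d hairpin, and the species prefix is left out from here on. These 10 of the 1927 entries listed were chosen by name, with earlier results of these data known. All 10 passed the filter on low counts that left 388 entries to test. miR-seq, the sequencing of small RNAs from an adapter-ligated library, was made from whole livers of female mouse fetuses at E18.5, with 1 library per fetus. The 5 wild-type (WT) fetuses and the 7 Mir483Pat-KO fetuses were on a C57BL/6J background. The authors describe the WT fetuses as littermates, and the labels do not give the litters. Mir483Pat-KO fetuses inherited a deletion of Mir483 from the father and kept the maternal allele, and the line goes back to targeted embryonic stem cell clones of C57BL/6N origin whose selection cassette was removed by Cre. WT fetuses carried no deletion. In a whole liver, fewer cells of a type and less RNA per cell cannot be told apart.

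The family is defined by a shared seed, the bases next to the 5′ end of a miR that pair with its targets. let-7 miRs are low in early embryos and accumulate as tissues differentiate, and the RNA-binding protein LIN28 holds them down by blocking the processing of their precursors. Known targets include Hmga2, a chromatin protein of growing tissues, and LIN28 itself. Each hairpin gives a guide strand, which is kept, and a passenger strand, which is mostly degraded.

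The mature sequences, from RefSeq's annotation of GRCm38.p6, are shown because the entries differ by so few bases that the counting itself bears on every value. The seed, bases 2 to 8 from the 5′ end, is in capitals.
let-7a-5p: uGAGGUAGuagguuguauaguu
let-7c-5p: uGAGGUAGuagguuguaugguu
let-7b-5p: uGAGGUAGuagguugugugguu
let-7e-5p: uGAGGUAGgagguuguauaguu
let-7k: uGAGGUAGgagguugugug
let-7f-5p: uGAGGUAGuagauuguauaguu
let-7d-5p: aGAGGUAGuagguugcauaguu
let-7g-5p: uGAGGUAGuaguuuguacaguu
let-7i-5p: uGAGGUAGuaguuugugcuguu
miR-98-5p: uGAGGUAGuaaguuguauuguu
let-7d-3p: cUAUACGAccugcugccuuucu

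All 9 guide entries have the seed GAGGUAG, and let-7d-3p has another, UAUACGA. Counted from the 5′ end with the base of let-7a-5p first, let-7c-5p differs from let-7a-5p by A19G, let-7e-5p by U9G and let-7f-5p by G12A. let-7b-5p differs by A17G and A19G, let-7d-5p by U1A and U16C, let-7g-5p by G12U and U18C, and miR-98-5p by G11A and A19U. let-7i-5p is the farthest from let-7a-5p, with G12U, A17G, U18C and A19U. let-7b-5p and let-7c-5p also differ from each other by a single base. let-7k, 19 bases long, shares an entry with let-7e-5p. How the authors' counting placed reads among sequences that differ by a single base could not be checked. Levels of let-7a-5p, let-7c-5p, let-7e-5p, let-7f-5p and let-7b-5p are therefore less certain singly than summed. The only other mature sequence of the reference with this seed, miR-1961, had 0 counts in all 12 libraries.

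The genes lie in several clusters, given here with GENCODE M21 coordinates on GRCm38. On chromosome 13, minus strand, Mirlet7d (48536012 to 48536114), Mirlet7f-1 (48537829 to 48537917) and Mirlet7a-1 (48538179 to 48538272) lie 1714 and 261 bases apart, all over an exon of the long non-coding RNA 6720427I07Rik. On chromosome 16, Mir99a (77598936 to 77599000), Mirlet7c-1 (77599657 to 77599750) and Mir125b-2 (77646273 to 77646343) lie in introns of the non-coding Mir99ahg. On the X chromosome, Mirlet7f-2 (151912346 to 151912428) and Mir98 (151913214 to 151913321) lie 785 bases apart in an intron of Huwe1, a ubiquitin ligase gene. The mature let-7a-5p, let-7c-5p and let-7f-5p are each made by 2 genes, in different clusters, and their reads cannot be given to one of them. let-7d-5p, let-7d-3p and miR-98-5p each come from 1 gene.

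Each WT library held 711810 to 1211160 miR reads and each Mir483Pat-KO library 658665 to 921068, and 3 reads correspond to 2.58 to 4.68 CPM (counts scaled to a common library total). miR-483-3p, a product of the deleted gene, had 733 to 1281 reads in WT and 0 to 19 in Mir483Pat-KO. The hepatocyte miRs miR-122-5p, miR-192-5p and miR-194-5p summed to 173613 to 201636 CPM in WT and 165442 to 214535 in Mir483Pat-KO. Of 5 markers of other tissues, 4 are in the table: the neuronal miR-124-3p had 0 counts in every library, the muscle miR-1a-3p at most 13 reads, the pancreatic islet miR-375-3p means of 166 CPM in WT and 164 in Mir483Pat-KO, and miR-9-5p, another neuronal miR, 14 to 356 reads. The 356 reads (499.97 CPM) were in Mir483Pat-KO replicate 1, and miR-9-5p was at 17.1 to 112 CPM in WT. The summed level of this list was 168 to 313 CPM in WT and 155.2 to 709 in Mir483Pat-KO, its part in the results was not tested, and without Mir483Pat-KO replicate 1 both let-7d-3p and let-7f-5p were called, with let-7d-5p. WT libraries carry the index numbers 37 to 41 and Mir483Pat-KO libraries 42 to 48, so index order and genotype cannot be told apart between groups.

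let-7 made up several percent of all miR reads in these livers, and 4 of its guide strands carried most of them. In WT, scaled by edgeR's TMM method, let-7a-5p was at 17246 ± 1030 CPM (SD, n = 5), let-7f-5p at 14840 ± 818, let-7g-5p at 10196 ± 542 and let-7i-5p at 7986 ± 860. They were ranked 11, 14, 22 and 27 among the 388 entries by mean level. A gap followed: let-7i-5p was 2.97 to 3.90 times let-7c-5p in every library.

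let-7c-5p (2415 ± 151 CPM in WT) and let-7d-5p (2351 ± 212) were close, with let-7c-5p higher in 11 of 12 libraries. let-7e-5p/7k (1724 ± 96.1 CPM) and miR-98-5p (1652 ± 129) were also close, with let-7e-5p/7k higher in 9 of 12. Below them came let-7d-3p (668 ± 57.2 CPM) and let-7b-5p (352 ± 18.4). Except for the pair of let-7c-5p and let-7d-5p and the pair of let-7e-5p/7k and miR-98-5p, each entry was above the next one in all 12 libraries. Even let-7b-5p had at least 197 reads in a library. Levels of different miRs also carry the preferences of adapter ligation, so the order is one of reads.

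**Figure D1:**
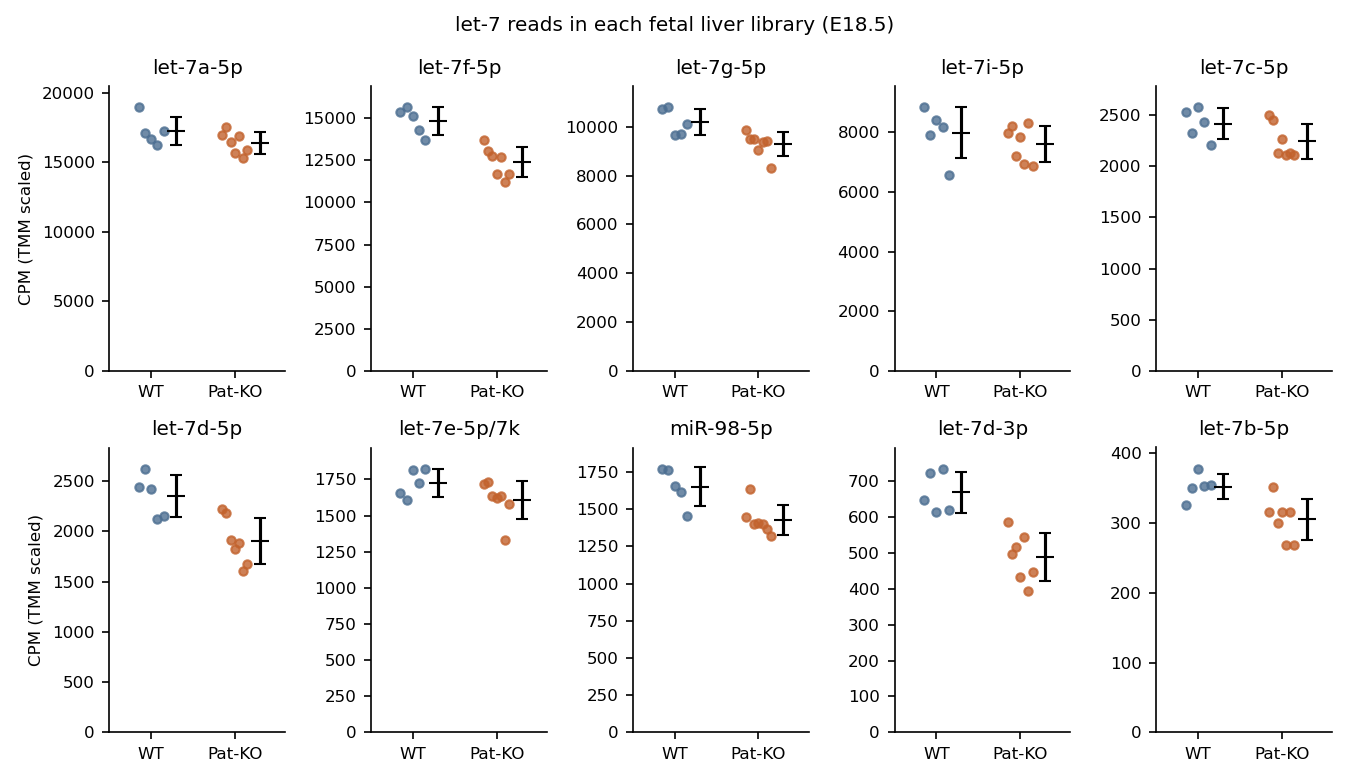
TMM-scaled CPM (vertical axes, from 0) of each let-7 entry in each library, ordered by WT level, for 5 WT and 7 Mir483Pat-KO fetuses. Points are libraries, and the bar beside them is the mean with the SD. let-7d-3p is the 1 entry in which no Mir483Pat-KO library reaches the lowest WT library (613.8 CPM).

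As shares of the summed guide reads in WT, let-7a-5p took 29.4% ± 1.20 (SD, n = 5), let-7f-5p 25.3% ± 0.670, let-7g-5p 17.4% ± 0.695 and let-7i-5p 13.6% ± 1.10. let-7c-5p took 4.11% ± 0.220, let-7d-5p between 3.74% and 4.36%, let-7e-5p/7k 2.94% ± 0.279, miR-98-5p 2.81% ± 0.116 and let-7b-5p 0.600% ± 0.0509. The first 4 together held 85.0% to 86.8% of the guide reads in all 12 libraries. The 95% Wilson interval of a share was at most ± 0.478 percentage points in a library, for let-7a-5p, and like all intervals on reads it covers counting error only.

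In Mir483Pat-KO the make-up was close to that of WT, with a smaller share of let-7f-5p. The let-7f-5p share was 24.6% to 26.0% in WT and 22.0% to 24.2% in Mir483Pat-KO, with means of 25.3% and 23.3%, a difference of -1.94 percentage points. All 7 Mir483Pat-KO libraries lay below all 5 WT libraries in this share, whereas the level of let-7f-5p in CPM overlapped between genotypes. The shares of the other guide entries overlapped. A share of the guide total exists for the guide entries alone, so this separation has no fraction of all entries to stand beside it. The let-7d-5p share was 3.74% to 4.36% in WT and 3.15% to 3.91% in Mir483Pat-KO, with 5 of 7 libraries below the lowest WT library.

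The shares of let-7a-5p (30.8% ± 0.824 in Mir483Pat-KO) and let-7i-5p (14.3% ± 1.11) were higher in the mean than in WT by 1.48 and 0.763 percentage points, and both overlapped between genotypes. The let-7g-5p share (17.5% ± 0.595) differed from WT by 0.0989 points. Shares of a single total cannot move independently and were not tested. Compared directly, let-7f-5p was 0.795 to 0.916 times let-7a-5p in WT and 0.733 to 0.809 times in Mir483Pat-KO, with 6 of 7 Mir483Pat-KO libraries below the lowest WT library. Its ratio to miR-98-5p was 8.67 to 9.42 in WT and 7.97 to 9.46 in Mir483Pat-KO, which overlapped.

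**Figure D2:**
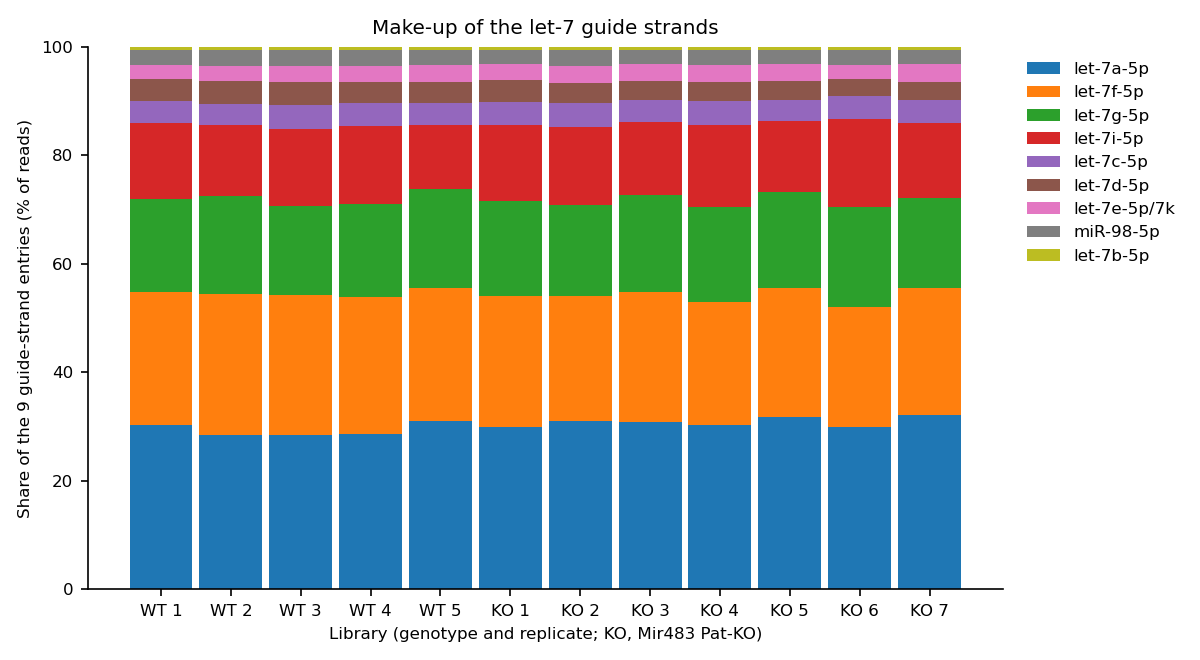
Share of the reads of the 9 guide entries (vertical axis, %) taken by each entry in each of the 12 libraries (horizontal axis). let-7a-5p, let-7f-5p, let-7g-5p and let-7i-5p fill 85.0% to 86.8% of every bar, and the let-7f-5p segment is 24.6% to 26.0% in WT and 22.0% to 24.2% in Mir483Pat-KO (KO).

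All 10 entries had a lower fitted level in Mir483Pat-KO than in WT, and for let-7d-3p and let-7f-5p the difference passed the test. Of the 10, 2 passed an adjusted p of 0.05 (quasi-likelihood test of edgeR, Benjamini-Hochberg over 388 entries) and are termed called, where 2.06% of all entries were called and 1.03% were called lower. The authors had already reported let-7f-5p and let-7d-3p as downregulated in these livers, and the 10 were chosen with that known. The count is therefore a description and no measure of enrichment. A log2 fold change below 0 was found in 49.7% of the entries tested, and the median was -0.17 over the 10 let-7 entries and 0.0028 over all tested. An unadjusted p under 0.05 was found for 6 of the 10 and for 17.5% of all entries (7.99% lower). The spread behind each p is that between fetuses, which were separate animals but not all unrelated, since the authors describe the WT fetuses as littermates. The labels do not give the litter of a fetus, and litter was not in the fit.

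let-7d-3p, from the strand of the let-7d hairpin that does not carry the let-7 seed, had the lowest fold change. Its level was 648, 723, 614, 734 and 620 CPM in the WT libraries and between 394 and 587 in Mir483Pat-KO, with a median of 497. Every Mir483Pat-KO library lay below every WT library, a separation that 1.29% of the tested entries showed in this direction and 1.55% in the other. It fell by 0.45 on the log2 scale (SE 0.095, 95% interval -0.65 to -0.25, adjusted p = 0.0194 by edgeR), from 668 ± 57.2 CPM (SD, n = 5) to 488 ± 67.8 (SD, n = 7).

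let-7f-5p, the second most abundant member, was at 15376, 15664, 15164, 14303 and 13693 CPM in WT and between 11219 and 13725 in Mir483Pat-KO, with a median of 12689. One Mir483Pat-KO library (13725 CPM) lay above the lowest WT library, and the other 6 lay below it. let-7f-5p fell by 0.26 (SE 0.059, 95% interval -0.39 to -0.13, adjusted p = 0.0309 by edgeR), from 14840 ± 818 CPM to 12398 ± 900.0. With a single library left out its fold change was -0.30 to -0.24, and it was called in 6 of 12 such fits. Without WT replicate 1 or 3, or Mir483Pat-KO replicate 4, 5, 6 or 7, its adjusted p by edgeR was 0.0501 to 0.0783. let-7d-3p was called in all 12. Neither was called with the replicate number as a block (adjusted p by edgeR 0.166 for let-7f-5p, 0.189 for let-7d-3p). That fit draws nothing on genotype from Mir483Pat-KO replicates 6 and 7, which have no WT of the same number. Nor was either called within the lower animal numbers or with index number as a covariate, as given further on. Both were called with animal-number range as a factor.

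let-7d-5p, the guide strand of the same hairpin as let-7d-3p, was at 2123 to 2624 CPM in WT, with a median of 2416, and at 1607 to 2218 in Mir483Pat-KO, with a median of 1885. Of 7 Mir483Pat-KO libraries, 5 lay below the lowest WT library. Its log2 fold change was -0.31 (SE 0.087, 95% interval -0.49 to -0.12), with an adjusted p of 0.0761 by edgeR, which missed the threshold.

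miR-98-5p had a log2 fold change of -0.21 (SE 0.068, adjusted p = 0.115 by edgeR), from 1652 ± 129 to 1425 ± 101 CPM. For let-7b-5p it was -0.21 (SE 0.076, adjusted p = 0.185 by edgeR) and for let-7g-5p -0.14 (SE 0.054, adjusted p = 0.191 by edgeR). In each of these 3 entries, 6 of 7 Mir483Pat-KO libraries lay below the lowest WT library. The 95% intervals of these fold changes excluded 0 before adjustment, and none passed the test.

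let-7a-5p, the most abundant member, was at 17246 ± 1030 CPM in WT and 16379 ± 799.6 in Mir483Pat-KO, a log2 fold change of -0.075 with a 95% interval from -0.19 to 0.037. let-7i-5p was at 7986 ± 860 and 7612 ± 608 CPM (-0.069, 95% interval -0.23 to 0.091), and no Mir483Pat-KO library lay below its lowest WT library. let-7c-5p (-0.11, 95% interval -0.25 to 0.033) and let-7e-5p/7k (-0.10, 95% interval -0.25 to 0.046) overlapped as well. For these 4 entries the intervals reach down to -0.25 and up to 0.091.

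Summed, the 9 guide entries came to 58762 ± 2794 CPM (SD, n = 5) in WT, against 53145 ± 2695 (SD, n = 7) in Mir483Pat-KO, a log2 ratio of -0.14, with 5 of 7 Mir483Pat-KO libraries below the lowest WT library. As a percent of all miR reads without TMM scaling, they were 5.78% to 6.28% in WT and 4.89% to 5.63% in Mir483Pat-KO. These percents did not overlap, whereas the TMM-scaled sums did. Without scaling, the median log2 fold change of all entries tested was also lower, -0.063 against 0.0028. How many of all entries separate in this way without scaling was not counted. The sum was not tested.

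Beside these differences, the miRs of red blood cells were higher in the mean in Mir483Pat-KO. All 4 erythroid entries tested (miR-451a, both strands of miR-144, and miR-486a-5p, which shares its entry with miR-486b-5p) had log2 fold changes above 0, with a median of 0.19 and none called. Their summed level was 23848 to 31974 CPM in WT and 25913 to 37810 in Mir483Pat-KO. Of 5 white blood cell entries, the 3 tested (both strands of miR-142a, and miR-223-3p) had a median of 0.14 and none was called. The other two did not pass the filter and had lower means in Mir483Pat-KO: miR-155-5p, which had 0 reads in 9 of 12 libraries, 100.04 and 38.5 CPM, and miR-150-5p 11.5 and 8.14. All 5 summed to 11343 to 14595 CPM in WT and 13119 to 14813 in Mir483Pat-KO. Their part in the let-7 difference was not tested. Of the 3 hepatocyte entries, 1 was below 0 and 2 above, with a median of 0.0099.

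The level of let-7 also fell along the library index numbers within each genotype. Animal numbers rise in the same order within each genotype, so these orders cannot be told apart. In WT, let-7f-5p was at 15376 CPM at index 37 and 13693 at index 41. In Mir483Pat-KO it was at 13725 CPM at index 42 and 11667 at index 48, so that the last WT and the first Mir483Pat-KO library were nearly level. The slope was below 0 in both genotypes for 8 of the 10 let-7 entries and for 29.9% of the 388 tested, and let-7b-5p and let-7e-5p/7k were the exceptions, with slopes above 0 in WT.

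In the fit with genotype and index number together, the index term, looked at after the data were seen, was called by edgeR for 1 of the 10 entries and for 3.09% of all tested. That entry was let-7d-5p, with -0.073 on the log2 scale per index (SE 0.015, adjusted p = 0.0139 by edgeR), and its slope was -0.068 in WT and -0.075 in Mir483Pat-KO. For let-7f-5p it was -0.042 (SE 0.011, adjusted p = 0.0568 by edgeR), and for let-7d-3p -0.048 (SE 0.024, adjusted p = 0.418 by edgeR). let-7d-3p was the entry with the flattest slope of the 8 in WT, -0.010, against -0.063 in Mir483Pat-KO. An unadjusted p under 0.05 for the index term (edgeR) was found for 6 of the 10 entries and for 13.9% of all tested.

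With index number as a covariate, no let-7 entry was called for genotype. The genotype difference was then -0.17 for let-7d-3p (95% interval -0.52 to 0.18), -0.0063 for let-7f-5p (-0.18 to 0.16) and 0.13 for let-7d-5p (-0.092 to 0.35). The direction turned from lower to higher for let-7a-5p, let-7c-5p, let-7d-5p, let-7e-5p/7k, let-7g-5p, let-7i-5p and miR-98-5p. These intervals are wider than without the covariate, since every WT index is below every Mir483Pat-KO index.

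The animal numbers, which rise with the index numbers within each genotype, gave another split, into a lower and an upper range. Within the lower range of animal numbers, 4 WT against 4 Mir483Pat-KO fetuses, all 10 entries were again below 0, and let-7d-3p was at -0.44 (adjusted p = 0.0992 by edgeR) and let-7f-5p at -0.26 (adjusted p = 0.130 by edgeR). The upper range held 1 WT and 3 Mir483Pat-KO fetuses, too few to compare. With animal-number range as a factor over all libraries, let-7d-3p and let-7f-5p were both called. They were at -0.42 (adjusted p = 0.0403 by edgeR) and -0.23 (adjusted p = 0.0456 by edgeR).

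**Figure D3:**
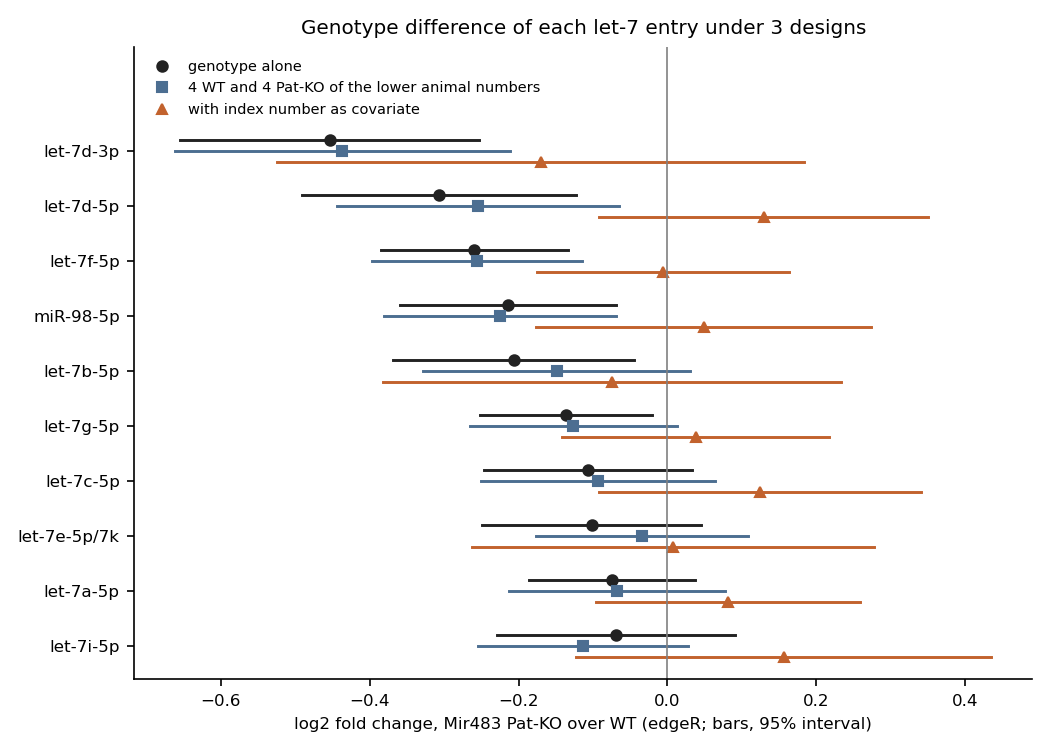
log2 fold change of Mir483Pat-KO over WT (horizontal axis) of each let-7 entry, with its 95% interval from edgeR, for the fit on genotype alone (circles), for the 4 WT and 4 Mir483Pat-KO fetuses of the lower animal numbers (squares) and with index number as a covariate (triangles). All circles and squares lie below 0, and 3 of the 10 triangles do.

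**Figure D4:**
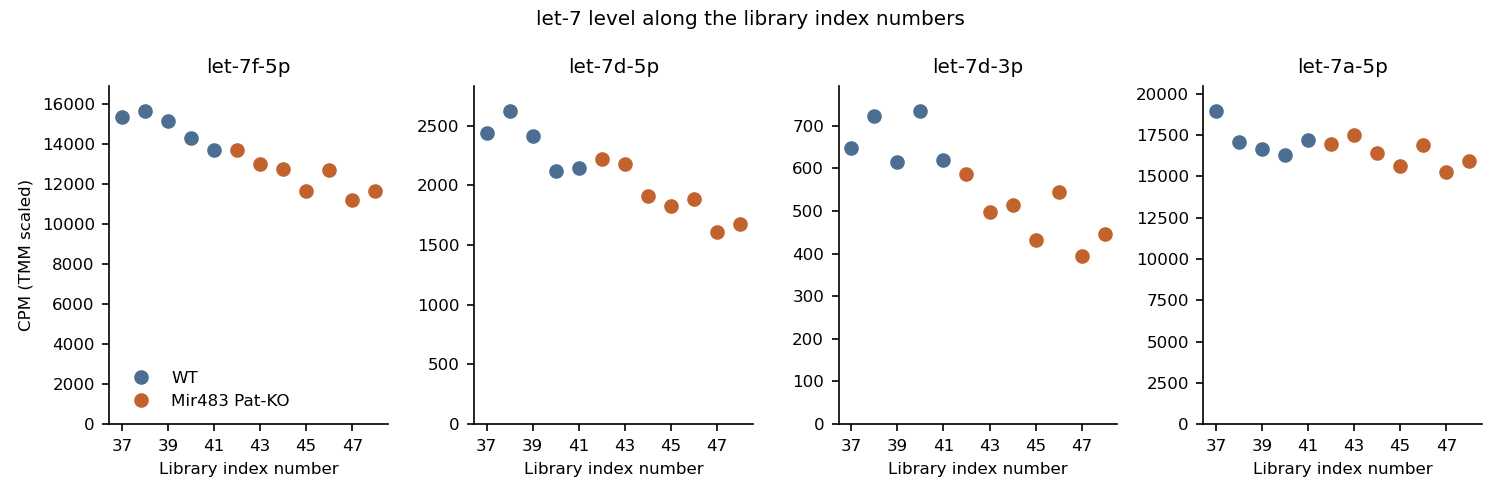
TMM-scaled CPM (vertical axes, from 0) of let-7f-5p, let-7d-5p, let-7d-3p and let-7a-5p against the library index number, with WT at 37 to 41 and Mir483Pat-KO at 42 to 48. let-7d-5p goes from 2443 CPM at the first index to 1678 at the last, and the genotypes do not share an index number.

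Of the 4 products of the chromosome 13 cluster a-1/f-1/d, let-7f-5p and let-7d-3p passed the test and let-7d-5p and let-7a-5p did not. Of the products of the cluster of let-7c with miR-99a and miR-125b, none passed. Taking the mean log2 CPM of let-7a-5p, let-7f-5p, let-7d-5p and let-7d-3p in each library, the first gave a WT mean of 12.13 ± 0.070 (SD, n = 5) and a Mir483Pat-KO mean of 11.85 ± 0.13 (SD, n = 7), a difference of -0.28, and no Mir483Pat-KO library reached the lowest WT library. Both strands of let-7d, the products that no other gene makes, gave 10.29 ± 0.092 and 9.91 ± 0.18, a difference of -0.38, also without overlap. Both of these means include let-7d-3p, the 1 let-7 entry that did not overlap by itself, so their separation is not separate from its own. How often means of other entries separate was not counted. let-7f-5p and miR-98-5p, from the X-linked cluster, gave 12.27 ± 0.097 and 12.04 ± 0.091, a difference of -0.24, with 5 of 7 libraries below WT.

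The mean of let-7c-5p, miR-99a-5p and miR-125b-5p was 8.08 ± 0.10 in WT and 8.05 ± 0.13 in Mir483Pat-KO, a difference of -0.034, with 1 of 7 libraries below WT. It averages -0.11 for let-7c-5p, 0.11 for miR-99a-5p and -0.10 for miR-125b-5p, and let-7c-5p was thus lower in its fold change than let-7a-5p (-0.075) of the first cluster. let-7f-5p counts in both the first and the X-linked cluster because its reads cannot be divided, and the cluster means, chosen with the results known, were not tested, nor was the contrast between clusters.

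**Figure D5:**
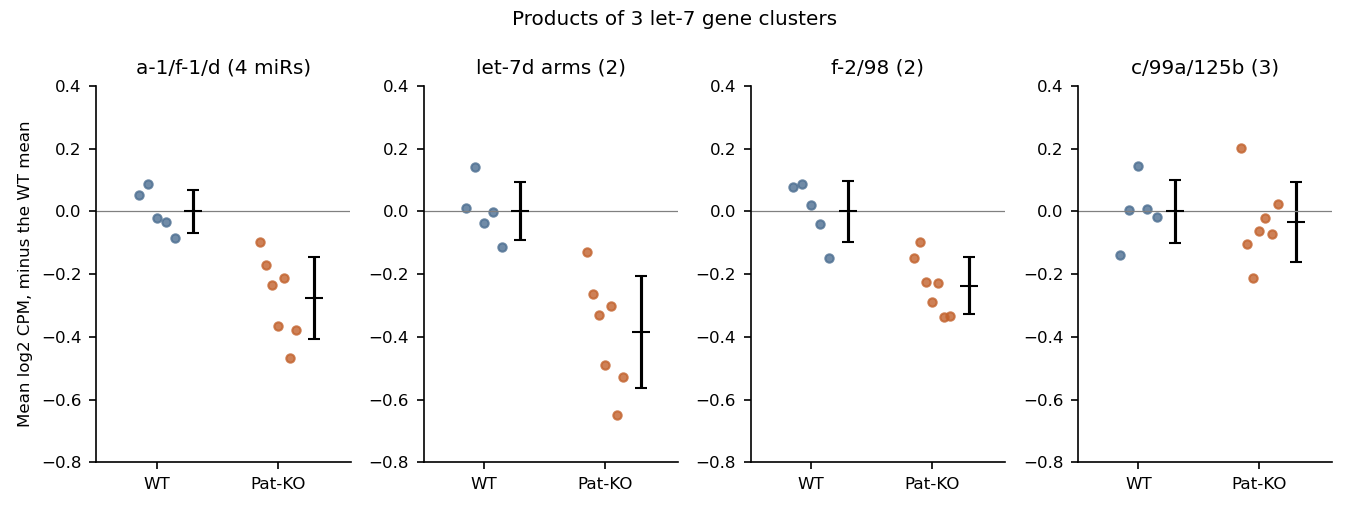
Mean log2 CPM of the products of each let-7 gene cluster in each library, minus the WT mean (vertical axes), for 5 WT and 7 Mir483Pat-KO fetuses. Points are libraries, and bars are the mean with the SD. The differences of the means are -0.28 for a-1/f-1/d, -0.38 for the let-7d strands, -0.24 for f-2/98 and -0.034 for let-7c with miR-99a and miR-125b.

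The partners that share clusters with let-7 genes did not move one way. Of 11 such entries, from Mir99a, Mir99b, Mir100, Mir125a and the Mir125b genes, 9 passed the filter, 5 were below 0 and 4 above, with a median log2 fold change of -0.059, and none was called. miR-99a-5p, next to Mirlet7c-1, was at 193 ± 20.7 CPM in WT and 209 ± 21.5 in Mir483Pat-KO (0.11, SE 0.094, adjusted p = 0.606 by edgeR). miR-125b-5p, which 2 genes make, was at 40.8 ± 10.2 and 37.7 ± 8.67 CPM (-0.10, SE 0.20, adjusted p = 0.855 by edgeR).

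miR-125a-5p, whose gene lies 367 bases after Mirlet7e on chromosome 17, came nearest to the threshold, at 370 ± 25.9 and 292 ± 36.1 CPM (-0.34, SE 0.089, adjusted p = 0.0620 by edgeR). let-7e-5p/7k, from between Mir99b and Mir125a, was at -0.10 as given above, and miR-99b-5p, on its other side, was at 2772 ± 299.6 and 2858 ± 159.7 CPM, a log2 fold change of 0.044. miR-100-5p, in the cluster of Mirlet7a-2, had at most 16 reads in a library and was not tested.

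Both strands of let-7d were lower in the mean, and their ratio was not shown to differ between genotypes. let-7d-5p was 3.54 ± 0.402 times let-7d-3p in WT and 3.92 ± 0.328 times in Mir483Pat-KO, which overlapped. On the log2 scale with a prior count of 2, limma put the difference of the 5p to 3p ratio at 0.15 (SE 0.098, 95% interval -0.065 to 0.36, adjusted p = 0.462 over 95 hairpins with both strands tested). In that comparison 1.05% of the hairpins were called and 17.9% had an unadjusted p under 0.05, and let-7d was ranked 32 by p.

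let-7d-3p was the only second strand of the family at this level. The other 10 passenger entries of let-7 and miR-98 were far lower: miR-98-3p, the highest by mean, was at 80.5 ± 13.4 CPM in WT and 72.3 ± 12.8 in Mir483Pat-KO (-0.16, SE 0.15, adjusted p = 0.675 by edgeR). Of the 10, 6 passed the filter, 4 of them below 0 and none called, with a median of -0.11. Their range, -0.48 to 1.80, is set at its upper end by let-7b-3p, which had 0 reads in 5 of 12 libraries and at most 17. let-7f-2-3p had 0 reads in all libraries.

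Across the 12 libraries, after taking away each genotype's mean, the let-7 entries mostly moved together. Of 45 pairs, 40 had a correlation of log2 CPM above 0, with a median r of 0.43 and a range from -0.28 to 0.93. let-7d-5p and let-7f-5p were most alike (r = 0.93), followed by let-7d-5p with miR-98-5p (0.78) and let-7f-5p with let-7d-3p (0.77), and let-7e-5p/7k with let-7i-5p was lowest. These points share libraries, scaling and index order. Outside the family, the entries most like let-7d-3p among 132 whose log2 CPM averaged 8 or more were miR-143-3p (r = 0.79), miR-30b-5p (0.71) and miR-30c-5p (0.70). Those most like the guide total were miR-28a-5p/28c (0.87), miR-122-5p (0.82) and miR-1839-5p (0.81). None of these 6 was called between genotypes.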

How the data were processed

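Small RNA libraries were made from 12 fetal livers, 1 per fetus. The authors used miRge 3.0 for alignment and counting and deposited raw counts, whole numbers of reads per mature miR in each library. The miR reference and adapter trimming are not given in the sources used here. Genotypes came from the sample labels. Starting from the counts, entries were kept by edgeR's filterByExpr (minimum count 10, minimum total 15), scaled by TMM, and compared in edgeR 4.0.16 (R 4.3.3) with its quasi-likelihood F-test (glmQLFit with legacy = TRUE), genotype alone in the design, with Benjamini-Hochberg adjustment over all 388 tested. Totals were 658665 to 1211160 counts per library, and a floor of 3 counts is 2.58 to 4.68 CPM. Strand ratios were compared with limma 3.58.1. Sums, shares, cluster means and correlations are descriptions with no test.

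The members and lists were chosen with earlier results of these data known. Named are all 10 let-7 entries, miR-483-3p, the partners miR-99a-5p, miR-125b-5p and miR-125a-5p, the most abundant passenger strand, entries with the let-7 seed, cell type markers, and the 3 abundant miRs (mean log2 CPM at least 8) most correlated with let-7d-3p and with the guide total. miR-99b-5p, miR-100-5p, let-7b-3p and let-7f-2-3p were named after their values were seen. Alternatives were other scalings and filters, DESeq2 1.42.0, limma-voom, edgeR without legacy dispersion, the replicate number as a block, animal-number range, index number, and leaving out each library. No pair of same-genotype libraries was a duplicate (chi-square over degrees of freedom 5.11 to 37.8 in 31 pairs). The code was tested on simulated data. Figures were drawn with matplotlib 3.10.9.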

Additional observations from a re-analysis of the deposited data

Results flagged for a closer look

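A library was singled out where it lay far from the others of its genotype, by Dixon's test of the gap to the nearest value over the range. This was looked at in 62 groups of 31 measures, 7 were past the limit, and chance gives about 1 in 20. Among the guide strands, let-7e-5p/7k was at 1330 CPM in Mir483Pat-KO replicate 6 and at 1579 to 1730 in the other 6, and miR-98-5p was at 1635 CPM in Mir483Pat-KO replicate 2 and at 1318 to 1451 in the others. Without that replicate miR-98-5p was called (-0.27, adjusted p = 0.0262 by edgeR).

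The passenger entry let-7a-1-3p/7c-2-3p was at 132 CPM in WT replicate 1, against 18.2 to 29.9 in the other WT libraries, and at 114 CPM in Mir483Pat-KO replicate 5, against 17.0 to 24.9. In reads these were 154 and 87, where the other 10 libraries had 13 to 29. With both libraries left out, a setting chosen after seeing the data, let-7d-3p was called and let-7f-5p was not (-0.25, adjusted p = 0.0871 by edgeR). let-7b-3p was at 18.2 CPM in WT replicate 4 and at 0 in the other 4 WT libraries. miR-98-3p was at 46.2 CPM in Mir483Pat-KO replicate 7, against 69.7 to 85.7, and miR-125b-2-3p at 48.4 CPM in WT replicate 3, against 31.2 to 34.4.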

How the results depend on the processing

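All 10 let-7 entries kept a log2 fold change below 0 under the alternatives tried, except with index number as a covariate, where 7 turned: let-7a-5p 0.081, let-7c-5p 0.12, let-7d-5p 0.13, let-7e-5p/7k 0.0071, let-7g-5p 0.038, let-7i-5p 0.16 and miR-98-5p 0.048. Against 2 let-7 entries called, 5 were called with library size alone and 5 with DESeq2 (let-7d-5p, let-7g-5p and miR-98-5p added in both). None was called with the index covariate or in the lower animal-number range (4 against 4 fetuses), and 1 to 4 with a library left out. With animal-number range as a factor, the same 2 were called, let-7d-3p and let-7f-5p. Over all entries, 8 were called, against 14 (11 lower) with library size alone, 27 (14 lower) with DESeq2, 5 (4 lower) with animal-number range as a factor, 3 with the index covariate, 2 in the lower range and 18 (7 lower) at an adjusted p under 0.1. Leaving out a library gave 3 to 12, and leaving out WT replicate 1 with Mir483Pat-KO replicate 5 gave 4, with 1 let-7 entry. The cause was not tested. Library size alone moved the median of all entries to -0.063. Taking the median entry of let-7c-5p, miR-99a-5p and miR-125b-5p in place of the mean gave 0.11, the value of miR-99a-5p. miR-125b-5p was at -0.21 to 0.0029 with a library left out (the latter without WT replicate 3), and miR-125a-5p was called under 6 of the scalings, filters and tools (smallest adjusted p 0.00880, with DESeq2).

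Same-numbered fetuses did not deviate together (r from -0.24 to 0.23 over 5 numbers), so no pairing by replicate number was seen. These values cannot show which fetuses shared a litter, which the labels do not give. With the replicate number as a block, 0 let-7 entries and 3 of all entries were called (2 lower), with let-7d-3p at -0.38 (adjusted p = 0.189 by edgeR) and let-7f-5p at -0.22 (adjusted p = 0.166 by edgeR). Mir483Pat-KO replicates 6 and 7 have no WT of the same number, so they add nothing to the genotype difference in this fit.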
